A study of Homo sapiens with 8 samples.

Results

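The mitochondrial ribosomal proteins were taken as the genes whose names are MRPL or MRPS followed by a number and, in some, a letter, which gave 78 of the 62649 genes in the expression table. By their place in the particle, 51 belong to the large subunit, 26 to the small subunit and 1, MRPS36, to neither. All 78 passed the filter on low values, at least 1 TPM (transcript abundance per length, scaled to one total in every library) in 2 or more libraries, which 19122 genes passed. The genes lie on 21 chromosomes.

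The mitochondrial ribosome is a separate ribosome inside the organelle that translates the few proteins encoded by mitochondrial DNA, all of them core parts of the respiratory chain and the ATP synthase. Its rRNAs come from mitochondrial DNA, while all of its proteins are encoded in the nucleus, made in the cytosol and imported. Some of these proteins have bacterial counterparts and others are found only in mitochondria, and loss of several of them causes human respiratory chain disease.

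RNA was measured in AsPC-1 and PANC-1, established human pancreatic cancer cell lines. Both were grown for 3 days in methylcellulose medium, in which they form spheroids. They then received vehicle alone, roseoflavin at 10 µM, trametinib at 1 nM or both compounds, and were collected after 24 h. Roseoflavin is a riboflavin analogue with antibiotic activity, and trametinib inhibits the MEK kinases of the MAPK pathway. Each of the 8 combinations of line and treatment had 1 library, so each comparison of a compound within a line rests on 2 matched pairs of libraries, without and with the other compound. The error of a fitted value comes from treating these pairs as replicates. It is pooled over both lines, so a gene has the same error in each line. P-values measure only that pooled spread, which may be technical.

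Epithelial EPCAM was between 1224 and 1485 TPM in AsPC-1 and between 14.5 and 16.8 TPM in PANC-1, and mesenchymal VIM was between 660.3 and 816 TPM and between 3132 and 3391 TPM, in the same order. The defining markers of leukocytes (PTPRC), endothelium (PECAM1), acinar cells (PRSS1) and islets (INS) were at 0.158 TPM or less in every library. COL1A1, a fibroblast marker, was at 0.121 TPM or less in AsPC-1 and between 98.9 and 107 TPM in PANC-1. In the AsPC-1 libraries the genes named MT- held between 41.2% and 44.1% of the TPM, and in the PANC-1 libraries between 22.8% and 25.6%. Because TPM share one total, this difference moves all nuclear genes, and values are therefore also given after rescaling each library to 1000000 TPM without the genes named MT-. TPM hold no record of how many reads lie behind a value, and depth is therefore unknown. Nor can fewer cells of a kind be told apart from less RNA per cell in such bulk libraries.

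Together the 78 mRNAs made up 3621, 3552, 3439 and 3657 TPM in AsPC-1 with vehicle, roseoflavin, trametinib and both compounds, and 4333, 4360.2, 4466 and 4379 TPM in PANC-1 in that order of treatments. Each PANC-1 library was above each AsPC-1 library. As a share of TPM without MT- genes the AsPC-1 sums were 0.615%, 0.635%, 0.595% and 0.623%, and the PANC-1 sums were 0.582%, 0.571%, 0.594% and 0.567%. The order of the lines was thus turned by the rescaling. The median of the 78 genes was between 33.8 and 34.9 TPM in AsPC-1 and between 39.0 and 40.1 TPM in PANC-1.

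The levels of these genes, whose products enter the particle in equal numbers with few exceptions, spread widely. On the TPM scale, the highest was between 50.4 and 55.7 times the lowest within an AsPC-1 library and between 36.9 and 43.3 times within a PANC-1 library. In AsPC-1 the most abundant was MRPS34, a small subunit protein with no bacterial counterpart, at 257, 256, 240.2 and 269 TPM with vehicle, roseoflavin, trametinib and both. In PANC-1 it was at 241, 209.7, 242 and 206 TPM, so that the ranges of the lines overlapped at their edge. MRPL12, the counterpart of the bacterial stalk protein, which also binds the mitochondrial RNA polymerase, was between 105 and 122 TPM in AsPC-1 and between 165 and 177 TPM in PANC-1. The other genes with the highest means were MRPS12 and MRPS35. MRPS25, MRPL46 and MRPS22 had the lowest means, and MRPS25 was between 4.60 and 5.88 TPM in AsPC-1 and between 5.68 and 6.54 TPM in PANC-1.

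**Figure D1:**
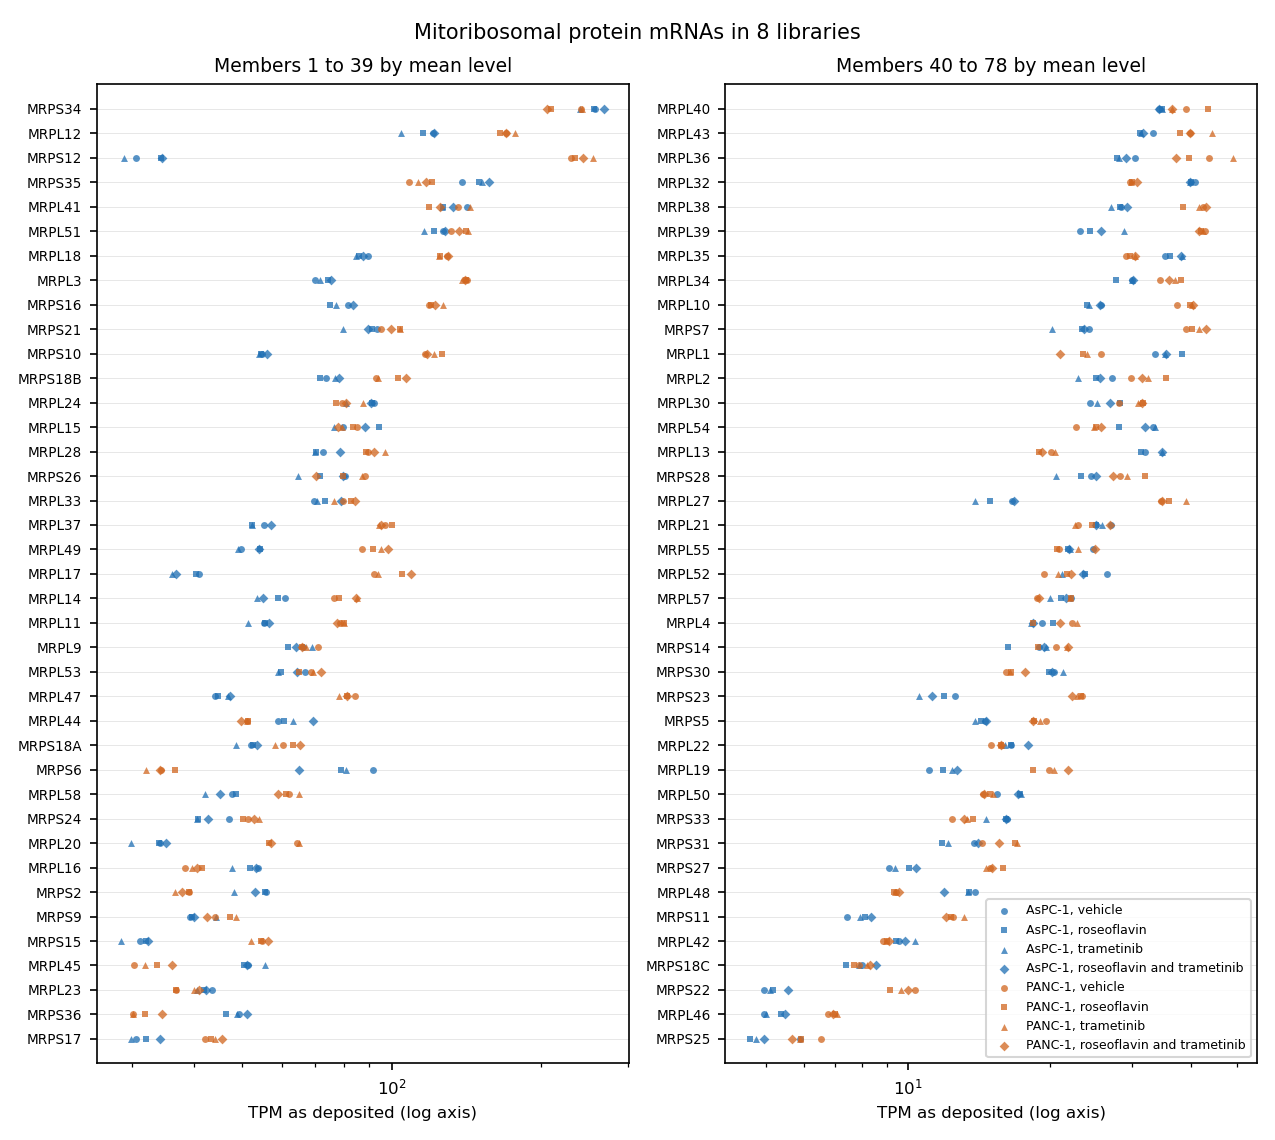
TPM as deposited (log axis) of each of the 78 genes in all 8 libraries, ordered by mean level. Colour marks the line and shape the treatment. For most genes the 4 treatments of a line lie close together, and MRPS12 shows the widest gap between the lines, 28.8 to 34.5 TPM against 229.7 to 255 TPM.

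The order of the genes was almost the same in every library of a line. Across the 78 genes, Pearson's r of log2(TPM + 1) between libraries of one line was between 0.994 and 0.998. Between the vehicle libraries of the 2 lines r was 0.872 and Spearman's rho 0.863. Over the 4 libraries of a line, the coefficient of variation of a gene had a median of 5.51% in AsPC-1 and 4.36% in PANC-1. It was highest for MRPS6 in AsPC-1, at 13.9%, and for MRPL36 in PANC-1, at 12.3%.

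PANC-1 was compared with AsPC-1 over all 4 treatments, with the treatment as a block. The 4 libraries of a line are 4 treatments of that line with 1 library each. The error is thus that between treatments, and not between independent cultures or other lines. As deposited, 47 of the 78 genes were higher in PANC-1 and 16 were lower at an adjusted p under 0.05 (limma, Benjamini-Hochberg over all genes tested), where 62.0% of the 19122 genes were higher and 21.3% lower. After rescaling without MT- genes, 22 were higher and 38 lower, where 47.4% of the genes tested were higher and 30.4% lower. The rescaling moved the median of all genes by 0.33 on the log2(TPM + 1) scale. Relative to that median, the members' median was -0.34 as deposited, -0.37 after rescaling and -0.29 after quantile normalization. Of the 78 genes, 58, 59 and 53 lay below the median of all genes in these scalings. The members' own median was 0.21 as deposited, -0.15 after rescaling and -0.25 after quantile normalization, so its sign depended on the scaling. Its place below the median of all genes held in these scalings but depended on the filter. With no filter on low values the median of all 33423 genes was 0.13 as deposited, below the 0.21 of the members. Where the mean had to reach 10 TPM it was 0.55 over 9368 genes, above the 0.21 of the 73 members left. After quantile normalization 18 members were called higher and 47 lower, where 41.1% of all genes tested were higher and 37.1% lower.

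Calls in one direction under all 3 scalings were made for 18 genes higher and 16 lower in PANC-1, where 41.0% of the 19085 genes tested in all 3 were higher and 21.2% lower. The higher ones were MRPL10, MRPL17, MRPL18, MRPL19, MRPL20, MRPL27, MRPL3, MRPL37, MRPL39, MRPL47 and MRPL49 of the large subunit and MRPS10, MRPS12, MRPS15, MRPS16, MRPS22, MRPS23 and MRPS7 of the small one. Their differences were between 0.54 and 2.87 as deposited and between 0.16 and 2.50 after rescaling. The lower ones were MRPL1, MRPL13, MRPL16, MRPL32, MRPL35, MRPL44, MRPL45, MRPL48, MRPL50, MRPL54 and MRPS30 of the large subunit, MRPS2, MRPS33, MRPS35 and MRPS6 of the small one, and MRPS36. Their differences were between -1.18 and -0.17 as deposited and between -1.57 and -0.55 after rescaling. MRPL11, MRPL38, MRPS11 and MRPS27 were called higher as deposited and after rescaling but not after quantile normalization. MRPL30, MRPL33, MRPL40, MRPL51, MRPL53, MRPS14, MRPS18A, MRPS21 and MRPS9 were called higher as deposited and lower after rescaling, so these 9 have no direction that holds. Another 16, among them MRPL12, MRPL58 and MRPS18B, were called higher as deposited and in neither direction after rescaling. Of these 16, MRPL34, MRPL46, MRPS5, MRPS24, MRPS25, MRPS28 and MRPS31 were called lower after quantile normalization, so they too have no direction that holds. A further 13, among them MRPS34, MRPL57 and MRPS18C, were not called as deposited and were called lower after rescaling. MRPL4 and MRPS26 were called neither as deposited nor after rescaling, and were called lower after quantile normalization.

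By subunit, the median difference as deposited was 0.16 over the 51 large subunit genes, of which 28 were called higher and 11 lower, and 0.30 over the 26 small subunit genes, of which 19 were called higher and 4 lower. After rescaling the medians were -0.23 and -0.08, with 13 higher and 28 lower in the large subunit and 9 of each in the small one. A difference between the subunits was not tested.

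**Figure D2:**
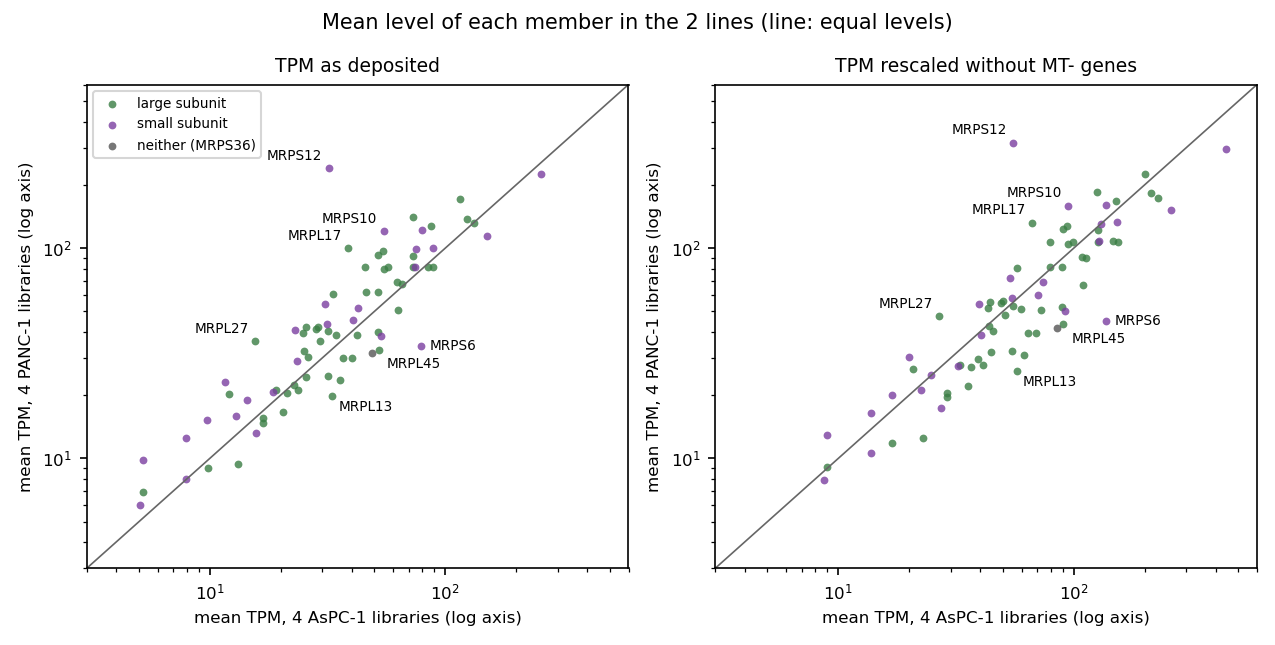
Mean TPM of each gene over the 4 libraries of PANC-1 against the mean over the 4 libraries of AsPC-1 (log axes), as deposited and rescaled without MT- genes, with the line of equal levels and the subunits in colour. Rescaling shifts the cloud from mostly above the line (51 of 78 genes) to mostly below it (48 of 78), and MRPS12 and MRPS6 stand apart in both panels.

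MRPS12, the counterpart of the bacterial S12 protein of the decoding site, had the widest difference. It was at 30.5, 34.25, 28.8 and 34.5 TPM in AsPC-1 with vehicle, roseoflavin, trametinib and both compounds, and at 229.7, 234, 255 and 243 TPM in PANC-1. The 2 lines did not overlap. The ratio of the means was 7.52-fold as deposited and 5.73-fold after rescaling. The fitted difference was 2.87 (SE 0.0694, adjusted p 8.64e-07 by limma, n = 4 libraries per line, 1 for each treatment). Its rank among the 78 genes was between 40 and 47 in the AsPC-1 libraries and was 1 or 2 in the PANC-1 libraries.

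The balance of the subunits was computed with and without this gene. In AsPC-1 MRPS12 took between 2.41% and 2.77% of the summed TPM of the small subunit genes, and in PANC-1 between 14.7% and 15.7%. The summed TPM of the large subunit genes was between 1.82 and 1.84 times that of the small subunit genes in AsPC-1, and between 1.73 and 1.78 times in PANC-1. Without MRPS12 the ratios were between 1.86 and 1.89 and between 2.04 and 2.10, so leaving out this gene turned the order of the lines.

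MRPS12 (ENSG00000128626) lies on chromosome 19 from 38930548 to 38933162 on the plus strand (GRCh38, GENCODE). It overlaps SARS2, the mitochondrial seryl-tRNA synthetase gene, and AC011455.2, both on the opposite strand. AC011455.2 is a coding gene listed without a name in the expression table, with its midpoint 0.77 kb from that of MRPS12. It was at 21.65 TPM in the AsPC-1 vehicle library and 333 TPM in that of PANC-1. Whether reads were assigned by strand is not given in the sources used here, so the values of these overlapping genes are uncertain. The RefSeq promoter window of MRPS12 (chr19:38930694-38930973, plus strand, GRCh38.p14) is shared with the window of SARS2, and it is printed with those of MRPL17, MRPL27 and MRPS6, which have the next largest differences in either direction as deposited. Each runs 5′ to 3′ from 250 bases before to 30 bases after the listed start, and capitals mark matches to the motifs named below.
MRPS12: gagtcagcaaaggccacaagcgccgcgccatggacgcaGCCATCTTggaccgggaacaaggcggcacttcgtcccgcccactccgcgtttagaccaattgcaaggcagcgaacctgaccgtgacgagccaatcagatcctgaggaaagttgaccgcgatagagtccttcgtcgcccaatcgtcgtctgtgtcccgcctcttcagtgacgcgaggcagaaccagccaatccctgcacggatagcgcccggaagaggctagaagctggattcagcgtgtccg
MRPL17: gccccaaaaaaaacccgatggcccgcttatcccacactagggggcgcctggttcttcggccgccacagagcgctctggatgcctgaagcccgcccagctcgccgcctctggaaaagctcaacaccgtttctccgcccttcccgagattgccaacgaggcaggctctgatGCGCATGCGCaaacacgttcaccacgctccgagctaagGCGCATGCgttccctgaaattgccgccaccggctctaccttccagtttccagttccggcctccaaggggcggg
MRPL27: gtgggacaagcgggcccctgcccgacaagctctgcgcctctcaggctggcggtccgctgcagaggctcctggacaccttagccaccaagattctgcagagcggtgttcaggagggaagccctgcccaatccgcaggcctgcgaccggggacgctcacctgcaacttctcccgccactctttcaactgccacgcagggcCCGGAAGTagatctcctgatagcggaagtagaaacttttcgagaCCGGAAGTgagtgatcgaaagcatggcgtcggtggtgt
MRPS6: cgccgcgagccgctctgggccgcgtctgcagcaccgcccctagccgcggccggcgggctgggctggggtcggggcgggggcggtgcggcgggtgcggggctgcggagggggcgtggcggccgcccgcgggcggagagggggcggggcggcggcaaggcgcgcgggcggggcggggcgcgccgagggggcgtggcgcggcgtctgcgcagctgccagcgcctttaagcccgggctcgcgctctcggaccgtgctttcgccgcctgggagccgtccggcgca

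The window of MRPS12 holds 1 match to the YY1 motif. The window of MRPL17 (chr11:6683311-6683590, minus strand) holds 3 matches to the NRF1 core, 2 of which overlap because that run reads as a match on both strands. The window of MRPL27 (chr17:50373155-50373434, minus strand) holds 2 ETS matches and is shared with the window of EME1 on the opposite strand. The window of MRPS6 (chr21:34073328-34073607, plus strand) holds none of the 5 motifs, is 83.9% G and C, and is shared with SLC5A3 on the same strand.

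A RefSeq promoter window was listed for 69 of the 78 genes. The search covered 250 bases before to 50 bases after each listed start on both strands, for the NRF1 core GCGCATGC, the ETS motif CCGGAAGT, the YY1 motif AAGATGGC, the E-box CACGTG and the ATF4 element TGATGNAA. NRF1, the ETS factor GABP and YY1 are known regulators of nuclear genes for mitochondrial proteins. The YY1 letters were in 21 of the 69 genes (30.4%), against 3.52% of 27305 genes in the table. The ETS letters were in 12 genes (17.4%), against 4.95%, and the NRF1 core in 6 genes (8.70%), against 3.68%. The E-box was in 9 genes (13.0%), against 8.77%, and the ATF4 element in 1 gene, MRPL55 (1.45%), against 4.46%. At least 1 of the first 3 motifs was in 30 genes (43.5%), against 11.2% of all genes. Among the genes with the YY1 letters were MRPS7, MRPS10, MRPS18A, MRPS18B, MRPS27, MRPS30, MRPL20, MRPL45 and MRPL52. These include genes that were higher in PANC-1, such as MRPS10, and genes that were lower, such as MRPL45. A match describes the letters and not binding.

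The genes around MRPS12 were also higher in PANC-1. Within 1 Mb on either side, 54 protein-coding genes were tested and 50 were higher, with a median difference of 2.38, against a median of 0.61 and 73.8% higher over all 13501 coding genes tested. After rescaling the medians were 2.15 and 0.27. SARS2 was at 15.0 TPM in the AsPC-1 vehicle library and 104 TPM in that of PANC-1, with a fitted difference of 2.69. NFKBIB, an inhibitor of NF-κB, was at 21.0 and 163 TPM (difference 2.87), and PAK4, a kinase, was at 20.4 and 159 TPM (difference 2.93).

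By distance between midpoints, the 26 genes from 0 to 1 Mb beyond MRPS12 had a median difference of 4.44, and 25 of them were higher. In the 3 bins of 1 Mb before it, from the nearest outward, the medians were 1.47, 2.36 and 2.10, with 25 of 28, 16 of 16 and 22 of 23 genes higher. From 3 to 4 Mb before it the median was 1.14. On the other side the median was 0.85 from 1 to 2 Mb beyond MRPS12 and 0.03 from 2 to 3 Mb, with 24 of 27 and 10 of 20 genes higher. From 3 to 4 Mb beyond MRPS12 it was 0.93, with 14 of 17 genes higher. The 919 coding genes of chromosome 19 more than 4 Mb away had a median of 0.78. AKT2, a kinase gene in the strip of high values, was between 9.26 and 10.6 TPM in AsPC-1 and between 419 and 437 TPM in PANC-1. PANC-1 is known to carry extra copies of a segment of the long arm of chromosome 19 that holds AKT2. Copy number was not measured here, and its part in the level of MRPS12 was not tested.

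**Figure D3:**
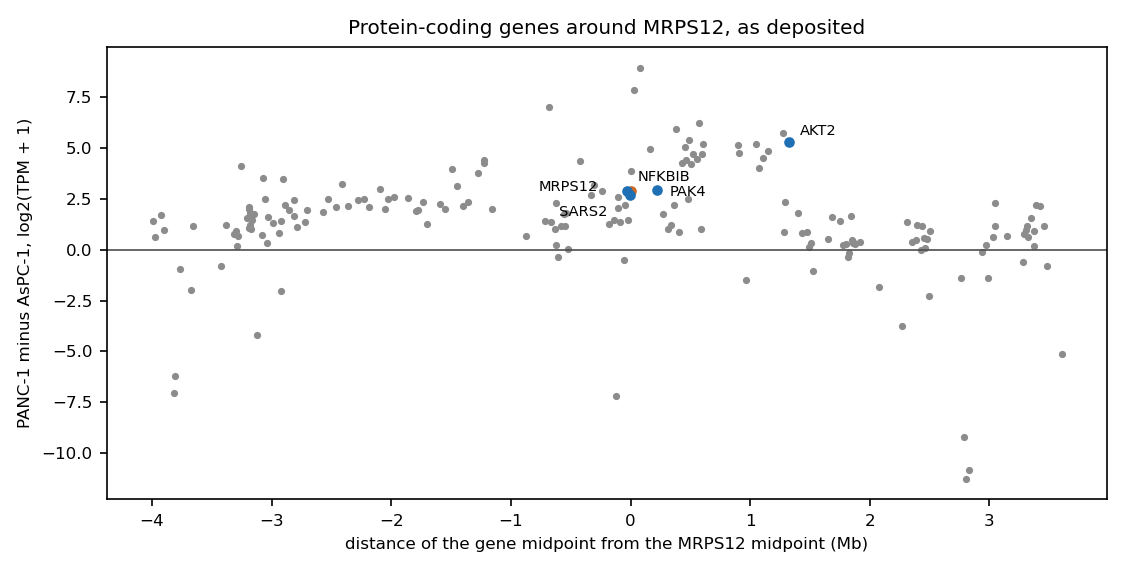
Difference of PANC-1 minus AsPC-1 in log2(TPM + 1), as deposited, of each protein-coding gene tested within 4 Mb of MRPS12, against the distance between gene midpoints. MRPS12 (orange, 2.87) lies among neighbours that are nearly all above 0, and AKT2 (5.32) is among the highest of the labelled genes (blue).

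Across the 77 genes with at least 1 coding neighbour within 1 Mb, the difference of the gene and the median difference of its neighbours had a Pearson's r of 0.596 and a Spearman's rho of 0.556. Without MRPS12 they were 0.510 and 0.538 over 76 genes. The points share their 8 libraries, some share neighbours, and genes are not independent replicates, so no p is given. For MRPL17 the median of 20 neighbours was 1.38, with 17 higher, and for MRPS6 the median of 17 neighbours was -0.07, with 8 higher.

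**Figure D4:**
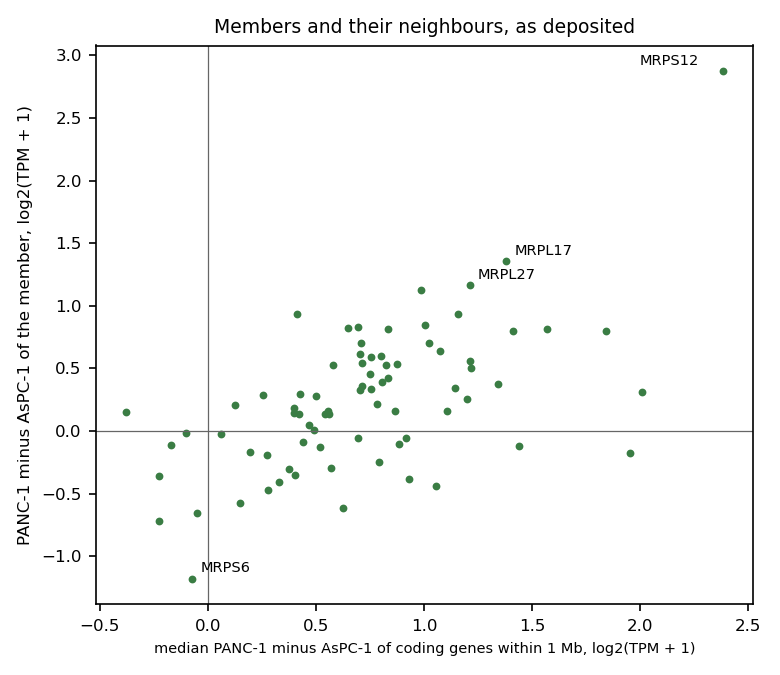
Difference of PANC-1 minus AsPC-1 of each gene against the median difference of the coding genes within 1 Mb of it, both in log2(TPM + 1) as deposited, for 77 genes. MRPS12 is at the upper right (2.38, 2.87), and the cloud slopes upward without it as well (r 0.510).

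MRPL17, the counterpart of bacterial L17, was at 40.9, 40.2, 36.1 and 36.8 TPM in AsPC-1 with vehicle, roseoflavin, trametinib and both compounds, and at 92.2, 105, 93.8 and 109 TPM in PANC-1. The lines did not overlap, and the difference was 1.35 (SE 0.0691, adjusted p 1.26e-05 by limma) and 0.98 after rescaling. MRPL27, the counterpart of bacterial L27 near the catalytic centre, was between 13.9 and 16.8 TPM in AsPC-1 and between 34.5 and 39.1 TPM in PANC-1, a difference of 1.17 (0.80 after rescaling). MRPS10, the counterpart of bacterial S10, was between 54.0 and 56.1 TPM and between 117 and 127 TPM, a difference of 1.12 (0.74 after rescaling). MRPL3, a large subunit gene in which variants cause cardiomyopathy, was between 70.1 and 75.5 TPM and between 139 and 142 TPM, a difference of 0.94 (0.55 after rescaling). MRPS23 was higher in PANC-1 by 0.94 (0.58 after rescaling), and MRPS7, the counterpart of bacterial S7 in the head of the small subunit, by 0.81 (0.44 after rescaling).

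MRPS6, the counterpart of bacterial S6, was the gene most in excess in AsPC-1. It was at 91.9, 79.0, 80.8 and 65.0 TPM in AsPC-1 with vehicle, roseoflavin, trametinib and both compounds, and at 34.3, 36.6, 31.9 and 34.1 TPM in PANC-1. The lines did not overlap, and the fitted difference was -1.18 (SE 0.0889, adjusted p 6.38e-05 by limma) as deposited and -1.57 after rescaling. MRPS6 overlaps SLC5A3, an inositol transporter gene, on the same strand, so their reads could be split between them in ways the sources used here do not give. SLC5A3 was at 47.9, 42.65, 46.4 and 34.4 TPM in AsPC-1 and at 30.5, 31.6, 29.2 and 31.7 TPM in PANC-1.

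MRPL13, the counterpart of bacterial L13, was between 31.3 and 34.7 TPM in AsPC-1 and between 18.9 and 20.5 TPM in PANC-1, a difference of -0.72 (-1.11 after rescaling). MRPL45, which ties the ribosome to the inner membrane, was between 50.5 and 55.4 TPM and between 30.2 and 36.1 TPM, a difference of -0.65 (-1.04 after rescaling). MRPS36, also known as KGD4 and a part of the oxoglutarate dehydrogenase complex, was between 46.3 and 51.1 TPM and between 30.1 and 34.4 TPM, a difference of -0.61 (-1.004 after rescaling). MRPL44, a disease gene of the large subunit, had a difference of -0.30 (-0.69 after rescaling), and MRPS30, which is named for the small subunit but sits in the large one, of -0.28 (-0.66 after rescaling).

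The 3 MRPS18 paralogs differed in level and in the comparison of the lines. MRPS18B was between 71.8 and 78.4 TPM in AsPC-1 and between 93.0 and 107 TPM in PANC-1, MRPS18A, which sits in the large subunit, between 48.4 and 53.6 and between 58.3 and 65.4 TPM, and MRPS18C between 7.38 and 8.54 and between 7.68 and 8.31 TPM. Their differences as deposited were 0.39, 0.25 and 0.01, and after rescaling 0.01, -0.13 and -0.35. MRPL58, a peptidyl-tRNA hydrolase that became a ribosomal protein, had a difference of 0.43 as deposited and 0.04 after rescaling, MRPL57 had -0.05 and -0.43, and MRPS27, a pentatricopeptide repeat protein, had 0.59 and 0.24.

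Other genes of mitochondrial translation were taken from lists of their roles. Their counts stand beside the 62.0% of all genes called higher and 21.3% called lower as deposited, and the 47.4% and 30.4% after rescaling. Of 5 ribosomal proteins not named MRP, 3 were called higher in PANC-1 and 1 lower as deposited, and 1 and 2 after rescaling. DAP3 and GADD45GIP1 were called higher as deposited and not called after rescaling (0.03 each), where CHCHD1 was called lower (-0.30). AURKAIP1 was higher by 1.14 (0.75 after rescaling), and PTCD3, a repeat protein of the small subunit, had a difference of -0.60 (-0.98 after rescaling). Of 22 ribosome assembly genes, 11 were called higher and 4 lower as deposited, and 8 and 10 after rescaling. RBFA, a maturation factor of the small subunit, was at 2.91 TPM in the AsPC-1 vehicle library and 19.2 TPM in that of PANC-1 (difference 2.47, 2.24 after rescaling), and TFB1M, which methylates the small subunit rRNA, at 4.01 and 10.8 TPM (difference 1.33, 1.04 after rescaling). GTPBP10 and MRM1 had the lowest differences among the assembly genes, -0.53 and -0.51.

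Of 17 translation factors, 9 were called higher and 6 lower as deposited, and 4 and 9 after rescaling. GFM1, an elongation factor, was higher by 1.00 (0.66 after rescaling) and GFM2, which splits the ribosome after termination, by 0.80 (0.44 after rescaling). MTIF3, an initiation factor, had a difference of -0.74 (-1.13 after rescaling), and MRRF, the recycling factor, of -0.60 (-0.99 after rescaling). Of 5 genes of mitochondrial DNA transcription, 4 were called higher and 1 lower as deposited, and 0 and 2 after rescaling. POLRMT, the polymerase, had a difference of 0.49 and 0.12 in these scalings, TFAM, the packaging factor, 0.44 and 0.06, and MTERF1 -0.33 and -0.71.

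Of 6 tested regulators of mitochondrial biogenesis, PPRC1, a coactivator, was higher in PANC-1 by 1.24 (0.88 after rescaling) and GABPA by 0.71 (0.35 after rescaling), while ESRRA had a difference of -0.92 (-1.31 after rescaling) and MYC of -0.37 (-0.76 after rescaling). PPARGC1A did not pass the filter. Of the 13 proteins encoded in mitochondrial DNA, 11 were called lower in PANC-1 and 0 higher as deposited, with a median of -0.64. MT-CO3, a cytochrome oxidase subunit, had the lowest difference, -1.40, followed by MT-ATP8 at -1.31. For the 82 tested proteins of the cytosolic ribosome the median difference was -0.18 as deposited and -0.57 after rescaling, against 0.21 and -0.15 for the mitochondrial ones.

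With roseoflavin in AsPC-1, 0 of the 78 genes and 0.0% of all genes tested passed an adjusted p of 0.05 by limma. An unadjusted p under 0.05 was found for 5 members and 2163 genes in all. Fitted changes ran from -0.26 to 0.22 with a median of 0.02, against -0.03 over all genes, and the median was -0.03 without and 0.08 with trametinib. For 68 of the 78 genes the 95% interval of the change lay within 1.25-fold in either direction. The share over all genes is not given for this count or the like counts below, so they are not read as particular to these genes. In both pairs of libraries 22 genes were higher, against 17.0% of all genes, and 11 were lower, against 35.4%. After rescaling, 60 of the 78 changes were above 0 and 18 below, with a median of 0.05 against -0.01 over all genes. The share of MT- transcripts went from 41.2% to 44.1% with roseoflavin alone and from 42.2% to 41.3% with roseoflavin on trametinib, and its part in these changes was not tested.

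The 2 highest changes had adjusted p-values of 0.363 and 0.380 by limma. MRPL15, the counterpart of bacterial L15, was at 79.8 TPM with vehicle and 94.5 TPM with roseoflavin, and at 76.7 TPM with trametinib and 88.3 TPM with both (change 0.22, 95% interval 0.12 to 0.32). MRPS12 had a change of 0.21 (0.07 to 0.34), MRPL30 of 0.15 (-0.02 to 0.32) and MRPS27 of 0.13. The lowest changes were -0.26 for MRPS6 (-0.38 to -0.14, adjusted p 0.363 by limma) and -0.15 for MRPL54, followed by -0.13 for MRPS25 and -0.11 for MRPS14. The intervals of MRPL54, MRPS25 and MRPS14 held 0. MRPS25 was lower in the pair without trametinib (-0.30) and higher in the pair with it (0.04).

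In PANC-1 with roseoflavin, 0 of the 78 genes and 0.0% of all genes passed by limma, and 8 members and 2074 genes in all had an unadjusted p under 0.05. Changes ran from -0.27 to 0.20, with a median of 0.01 against 0.00 over all genes. The sign of this median differed between the 2 pairs, since it was 0.0234 without and -0.0017 with trametinib. The interval lay within 1.25-fold for 64 of 78 genes. In both pairs 26 genes were higher, against 30.5% of all genes, and 21 were lower, against 29.8%. After rescaling, 28 changes were above 0 and 50 below. Their median was -0.026, against -0.028 over all genes, so these counts are not read as particular to the members. Here the share of MT- transcripts was lower in both treated libraries, from 25.6% to 23.7% and from 24.8% to 22.8%, and its part in these changes was likewise not tested.

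The highest change in PANC-1 was that of MRPL17, from 92.2 to 105 TPM without trametinib and from 93.8 to 109 TPM with it (change 0.20, 95% interval 0.10 to 0.31, adjusted p 0.376 by limma). MRPL21, MRPL45 and MRPS18B followed at 0.17, 0.16 and 0.16. The lowest change was that of MRPL36, the counterpart of bacterial L36, from 43.7 to 39.5 TPM without trametinib and from 49.1 to 37.1 TPM with it (change -0.27, -0.50 to -0.03, adjusted p 0.444 by limma). MRPS26 was lower in both pairs (-0.15 and -0.30), with a change of -0.22. Its interval, from the error pooled over both lines, was -0.58 to 0.13. MRPS34 went from 241 to 209.7 TPM and from 242 to 206 TPM (change -0.21, -0.37 to -0.06), and MRPL41 had a change of -0.20.

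No gene of the other lists passed the test with either compound, and their values with roseoflavin are given for comparison. In PANC-1 as deposited, 13 of the 13 proteins encoded in mitochondrial DNA were lower, with a median of -0.17. Of 82 cytosolic ribosomal proteins 80 were higher, with a median of 0.12 against 0.00 over all genes. The lower share of MT- transcripts in the treated PANC-1 libraries moves all nuclear genes as deposited, and its part in this contrast was not tested. In AsPC-1 as deposited, 11 of the 13 were higher, with a median of 0.06, and 33 of 82 cytosolic ones were higher, with a median of -0.02. Among assembly genes the widest changes were those of MTERF4 (-0.22) and MPV17L2 (0.17) in AsPC-1 and MTG1 (-0.21) and MRM1 (0.20) in PANC-1. Among translation factors they were those of MTRF1 (-0.23) and GFM1 (0.15) in AsPC-1 and PDF (-0.15) and LRPPRC (0.08) in PANC-1. MT-RNR1, the small subunit rRNA of the mitochondrial ribosome, had a change of -0.26 in AsPC-1 and 0.33 in PANC-1, with adjusted p-values of 0.404 and 0.398 by limma. The libraries were made from polyadenylated RNA, in which rRNA is measured poorly.

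**Figure D5:**
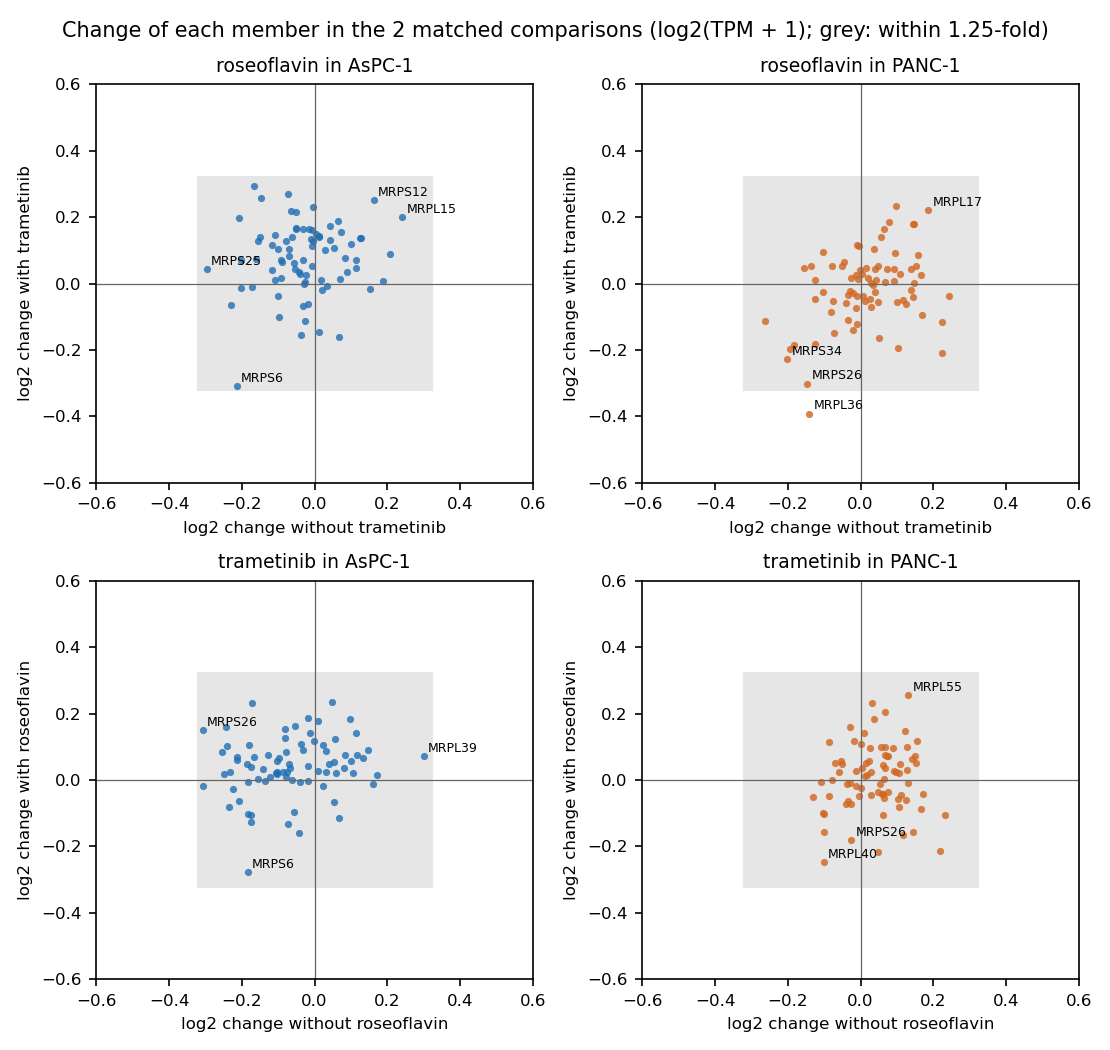
Change of each gene in log2(TPM + 1) with a compound, in the pair of libraries without the other compound (horizontal) and in the pair with it (vertical), in each line. Nearly all points lie within the grey square of 1.25-fold, and MRPS6 in AsPC-1 is below 0 on both axes with either compound (fitted changes -0.26 and -0.23).

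With trametinib in AsPC-1, 0 of the 78 genes and 0.0% of all genes passed by limma, and 6 members and 2691 genes in all had an unadjusted p under 0.05. Changes ran from -0.23 to 0.19 with a median of -0.02, against 0.02 over all genes. The sign of this median rested on single libraries. It was 0.04, with 58 of 78 genes higher, without the vehicle or the trametinib library, and -0.07, with 25 higher, without the roseoflavin library or that with both compounds. The interval lay within 1.25-fold for 64 genes. In both pairs 21 genes were higher, against 33.4% of all genes, and 16 were lower, against 20.9%. MRPS6 had the lowest change (-0.23, 95% interval -0.35 to -0.11, adjusted p 0.272 by limma), followed by MRPL52, MRPS23 and MRPL17 at -0.16, -0.16 and -0.15. MRPL39, a large subunit protein specific to mitochondria, had the highest change (0.19, -0.01 to 0.38), from 23.2 to 28.8 TPM without roseoflavin and from 24.4 to 25.7 TPM with it. MRPS14, MRPL44 and MRPL13 followed at 0.14, 0.14 and 0.13.

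With trametinib in PANC-1, 0 of the 78 genes and 0.0% of all genes passed by limma, and 5 members and 919 genes in all had an unadjusted p under 0.05. Changes ran from -0.17 to 0.19 with a median of 0.02, against 0.01 over all genes, and the interval lay within 1.25-fold for 68 genes. In both pairs 33 genes were higher, against 29.6% of all genes, and 16 were lower, against 21.5%. MRPL55, a large subunit protein specific to mitochondria, had the highest change (0.19, 95% interval 0.01 to 0.38, adjusted p 1.00 by limma), followed by MRPS14, MRPL14 and MRPL23 at 0.14, 0.14 and 0.13. MRPL40 had the lowest change (-0.17, -0.32 to -0.02), followed by MRPL1 at -0.13 and by MRPS26 and MRPL15 at -0.10 each.

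Across the 78 genes, the changes in the pair without and the pair with the other compound, which share no library, had a Pearson's r of 0.115 for roseoflavin and 0.170 for trametinib in AsPC-1. In PANC-1 r was 0.366 for roseoflavin and 0.0743 for trametinib. Over the 9368 genes whose mean reached 10 TPM the values were 0.170, 0.242, 0.317 and 0.112, in the same order, and over all 19122 genes tested they were 0.0428, 0.110, 0.0666 and -0.0078. Without MRPS6 the r of the 78 genes for roseoflavin in AsPC-1 was 0.0358. Genes of 1 library share its preparation, so no p is given.

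Whether a compound acted differently in the 2 lines was tested as an interaction with the line. For roseoflavin 0.0% of genes passed by limma, and 11 members and 2227 genes in all had an unadjusted p under 0.05. MRPS6 had the widest difference, 0.36 higher in PANC-1 than in AsPC-1 (95% interval 0.18 to 0.53, adjusted p 0.336), and MRPL20 and MRPS34 had -0.30 and -0.29. For trametinib 0.0% passed by limma, with 3 members and 1854 genes at an unadjusted p under 0.05, and MRPL14 had the widest difference, 0.28 (0.12 to 0.44, adjusted p 0.493). The intervals of these differences lay within 1.25-fold for 36 and 39 of the 78 genes, and reached beyond it for the others.

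Over both lines, 0.0% of genes passed for roseoflavin, for trametinib or for the interaction of the compounds by limma. The unadjusted p was under 0.05 for 3, 3 and 1 members and for 1358, 938 and 536 genes in all. For roseoflavin the changes ran from -0.15 (MRPL36) to 0.12 (MRPL30), and for trametinib from -0.17 (MRPS6) to 0.14 (MRPS14). The 95% interval lay within 1.25-fold for 78 of 78 genes with roseoflavin and 77 of 78 with trametinib. For the interaction it did so for 34 genes, and MRPS9 had the widest value, -0.23 (-0.45 to -0.01, adjusted p 1.00 by limma), followed by MRPS25 and MRPL53 at 0.21.

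Each treated library was also compared with the vehicle library alone, as a description of 2 single libraries with no test, and as deposited at most 1 of the 78 genes lay beyond 1.25-fold. The numbers were 0 for roseoflavin, 0 for trametinib and 1 for both compounds in AsPC-1, where 14.8%, 15.6% and 16.0% of all genes tested were beyond it. In PANC-1 they were 0, 0 and 1, where 12.7%, 12.2% and 14.7% of all genes were. The genes were MRPS6 in AsPC-1, at -0.49, and MRPS26, a small subunit protein specific to mitochondria, in PANC-1, at -0.33. After rescaling, MRPL39 with trametinib in AsPC-1 and MRPL1 with both compounds in PANC-1 were also beyond it. The shares count genes of every level.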

How the data were processed

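Values are TPM per gene from the authors' deposited table, in which per the file headers each of the 8 value columns is 1 line and treatment. The submitters' processing notes name STAR 2.7.3a, HTSeq 2.0.2 and hg38. How TPM were computed is not given in the sources used here. After 985926 blank rows were dropped, log2(TPM + 1) was fitted with limma 3.58.1 in R 4.3.3 (eBayes with a trend). The fit covered the 19122 genes at 1 TPM or more in at least 2 libraries, and this scale understates changes of low genes. Lines apart left 2 residual degrees of freedom over both lines together, the line contrast 3 and the additive model 4. P-values were adjusted by Benjamini-Hochberg with a threshold of 0.05. The models were also run on simulated data, but the outcome is not given here and is not used as support.

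Members and lists were chosen with earlier results of these data known. Named genes were members past the threshold, the 4 largest rises and falls per comparison, the 4 highest and 3 lowest means, members of particular role, and the extremes of the other lists. Neighbours, the balance of subunits, the motif counts by gene, and the promoters of MRPS12 and MRPS6 were chosen after values were seen. Gene positions are from GENCODE release 29 (78 of 78 members and 18327 of 19122 tested genes matched by identifier), promoters from RefSeq by symbol. MRP pseudogenes, 80 rows, summed to between 17.1 and 33.5 TPM per library. The alternatives were rescaling, quantile normalization, a pseudocount of 0.1, other filters, no block for the line and leaving out each library.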

Additional observations from a re-analysis of the deposited data

How the results depend on the processing

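Libraries were matched by line and treatment as the models describe, and no fit with a replicate block was made, since each group had 1 library and the labels give no replicate numbers. For the line comparison the members' median of 0.21 became -0.15 after rescaling without MT- genes and -0.25 after quantile normalization. After rescaling, the median became -0.026 for roseoflavin in PANC-1, -0.0097 for trametinib over both lines and -0.0061 for the interaction of the compounds. For trametinib over both lines it was -0.011 after quantile normalization. In the line comparison 51 members were above 0 as deposited, 30 after rescaling and 25 after quantile normalization. Among the members of particular role, MRPS18A (-0.13) and MRPS18C (-0.35) turned direction after rescaling. After quantile normalization MRPL58 (-0.022), MRPS18A (-0.20), MRPS18B (-0.039) and MRPS18C (-0.53) did so. When the mean had to reach 10 TPM, 8313 genes were called between the lines instead of 15921, of fewer genes tested (9368 instead of 19122). With no filter on low values, the line comparison had a median of 0.13 over all genes, and the members' median of 0.21 lay above it. With the filter at a mean of 10 TPM the members' median of 0.21 lay below the 0.55 of all genes. Leaving out each library in turn gave members' medians between -0.0305 and 0.0799 for roseoflavin in AsPC-1, -0.0017 and 0.0234 for roseoflavin in PANC-1, -0.0725 and 0.0411 for trametinib in AsPC-1, and 0.0126 and 0.0506 for trametinib in PANC-1. They were between -0.0969 and 0.0357 for the difference between lines in roseoflavin, -0.0224 and 0.0995 for that in trametinib, -0.0032 and 0.0326 for trametinib over both lines, and -0.0044 and 0.101 for the interaction of the compounds. Of these medians only that for trametinib in PANC-1 kept its sign. The sign was also kept for the line (0.199 to 0.240) and for roseoflavin over both lines (0.0022 to 0.0277). For single genes leaving out a library gave between -0.30 and 0.044 for MRPS25 with roseoflavin in AsPC-1, and in the line comparison between -0.00166 and 0.0275 for MRPS18C and between -0.11 and 0.0073 for MRPL57. No treatment or interaction comparison gained a called member under these alternatives. TPM without read counts limit what can be said of counting error.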
